A study of Mus musculus with 12 samples.

Results

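The genes described here are 10 genes widely used to recognise resting fibroblasts, namely Pdgfra, Tcf21, Dpt, Pi16, Gsn, Cd248, Ddr2, Vim, S100a4 and Thy1. They were found by their symbols in bulk RNA-seq count tables of mouse heart ventricles. All 10 were among the 14957 genes of the tables, and 9 were among the 13910 genes that passed the filter on low counts, S100a4 being the exception. The samples were ventricles of 12 wild-type C57Bl/6J mice, each labelled as a separate mouse, 4 in each of 3 groups. Sham-NT mice had the sham operation and received saline (PBS) instead of a vector. TAC-mScarlet mice had transverse aortic constriction, a narrowing of the aortic arch that overloads the left ventricle with pressure, and received an AAV9 vector carrying the red fluorescent protein mScarlet. TAC-BacNav mice were constricted likewise and received AAV9 carrying BacNav, a bacterial voltage-gated sodium channel, together with mScarlet. Both vectors use MHCK7, a promoter active in heart and skeletal muscle, so the transgenes were directed at cardiomyocytes and not at fibroblasts. The labels give neither age nor the time between operation and collection. Constriction and vector both differ between Sham-NT and TAC-mScarlet, so their contributions cannot be told apart. TAC-BacNav and TAC-mScarlet differ by the channel.

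Cardiac fibroblasts lie between the muscle cells and in the outer coat of vessels, where they make and maintain the collagen network. In the unstressed heart they express the growth factor receptor Pdgfra and the transcription factor Tcf21 and secrete small matrix proteins such as dermatopontin, the product of Dpt. Under pressure overload some of them divide and turn on a matrix programme marked by periostin and by contractile proteins. Several of the 10 genes are shared with other cells: Vim with endothelial and immune cells, S100a4 with leukocytes, Thy1 with T cells and vessel-associated cells, and Gsn with cardiomyocytes. In RNA from whole ventricle, fewer cells of a type and less RNA per cell cannot be told apart.

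Library totals ranged from 5.36 to 11.5 M counts, and every Sham-NT library (5.36 to 7.84 M) was smaller than every TAC-mScarlet library (8.28 to 9.81 M). Libraries also fell on 2 sides by the immediate early gene Fos. On the high side were 7 libraries, 2 of Sham-NT, 3 of TAC-mScarlet and 2 of TAC-BacNav, with Fos at 54.9 to 301 CPM (counts-per-million values, scaled by the trimmed mean of M values), and on the low side the other 5, with 1.60 to 7.89 CPM. The 10 listed genes of the mesothelium, the cell layer over the heart's surface, summed to 60.1 to 132 CPM on the high side and to 17.5 to 26.5 CPM on the low side. Markers of ventricular muscle were abundant, with 8 genes summing to 51298 to 89822 CPM. The measured atrial genes, Myl7 and Myl4, summed to between 2.00 and 8.15 CPM. The values below are CPM unless another scale is named.

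The promoter stretches of 3 of the genes are shown because these genes stand for different roles, a receptor, a transcription factor and a matrix protein. They come from RefSeq on GRCm38.p6, are written 5′ to 3′ on the gene's strand, and end before the first annotated exon. The stretch of Pdgfra is chr5:75152001-75152250 on the plus strand, Tcf21 at chr10:22820175-22820393 on the minus strand, and Dpt at chr1:164796413-164796643 on the plus strand. Capitals mark CAGCTG, an E-box of the kind bound by some basic helix-loop-helix factors.
Pdgfra: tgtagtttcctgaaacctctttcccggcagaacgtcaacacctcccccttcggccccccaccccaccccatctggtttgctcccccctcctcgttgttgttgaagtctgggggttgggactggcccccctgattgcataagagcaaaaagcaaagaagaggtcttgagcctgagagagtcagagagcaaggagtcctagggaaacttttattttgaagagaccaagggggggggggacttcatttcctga
Tcf21: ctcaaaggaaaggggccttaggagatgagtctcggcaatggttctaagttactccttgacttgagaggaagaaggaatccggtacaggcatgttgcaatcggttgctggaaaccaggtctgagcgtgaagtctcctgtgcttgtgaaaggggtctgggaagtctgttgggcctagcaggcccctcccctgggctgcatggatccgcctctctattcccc
Dpt: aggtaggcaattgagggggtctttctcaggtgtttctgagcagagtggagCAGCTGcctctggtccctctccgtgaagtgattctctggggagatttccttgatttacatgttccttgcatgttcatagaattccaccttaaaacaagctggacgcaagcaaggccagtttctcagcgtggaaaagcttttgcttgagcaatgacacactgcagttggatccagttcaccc
RefSeq promoter windows were matched for 8 of the 10 genes, not for Cd248 and Thy1, giving 10 windows. Searched on both strands in the 250 bases before each start, CAGCTG occurred in 3 of these windows, belonging to Dpt and Gsn, against 13.0% of all 32851 windows. TATAAA occurred in 3 windows, of Ddr2, Vim and S100a4, against 12.4% of all windows. GGAATG, a motif of TEAD factors, was in none of the 10 windows (12.6% of all), and TGANTCA, the AP-1 motif, was in none either (6.75% of all). For the matching windows of Gsn and S100a4, and for the window of Pdgfra, the bases transcribed after the window were not found in a GENCODE transcript. The windows of Ddr2, Vim and Pi16, and those of Gsn that start at 35266494 and 35282130, lie inside the annotated gene. A match describes letters only.

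Per kilobase of exon, the scale on which levels of different genes can be set side by side, Gsn was the most abundant of the 10 genes in every group. In Sham-NT it stood at 442 ± 67.8 CPM per kb (SD, n = 4). Dpt followed at 105 ± 13.1 CPM per kb and Vim at 81.6 ± 4.96 CPM per kb, and the libraries of these neighbours overlapped. Pi16 at 8.20 ± 1.41, Cd248 at 5.52 ± 1.33 and Ddr2 at 5.24 ± 0.36 CPM per kb also overlapped their neighbours in that order. Pdgfra at 4.24 ± 0.34, Thy1 at 3.57 ± 0.46 and Tcf21 at 3.09 ± 0.32 CPM per kb came next. S100a4 was last in every group, at 0.697 CPM per kb in Sham-NT, taken over exons that partly overlap another gene. In TAC-mScarlet the mean of Vim, 124 ± 54.6 CPM per kb, passed that of Dpt, 113 ± 30.2, but their libraries overlapped. Pi16 stayed in 4th place in all 3 groups, at 19.6 ± 9.30 CPM per kb in TAC-mScarlet and 13.3 in TAC-BacNav.

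The comparison of TAC-mScarlet with Sham-NT asks how these genes differ in ventricles with both constriction and the mScarlet vector. Pi16 was higher in TAC-mScarlet by 2.39-fold and was the only one of the 9 tested genes called, meaning an adjusted p below 0.05 in edgeR's quasi-likelihood fit (Benjamini-Hochberg over all tested genes). Among all tested genes 5.17% were called, 2.65% higher and 2.52% lower. The fitted difference was above 0 for 9 of 9 genes, with a median of 0.37 on the log2 scale, against 0.0044 for all tested genes. Unadjusted p was below 0.05 for 4 of the 9, Pi16, Pdgfra, Tcf21 and Vim, all of them higher; the share over all tested genes was 22.2%, and 11% for those higher. Libraries of the groups did not overlap for 2 genes, Pi16 and Tcf21, both higher in TAC-mScarlet. Over all tested genes 13.1% did not overlap, 6.33% being higher.

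**Figure D1:**
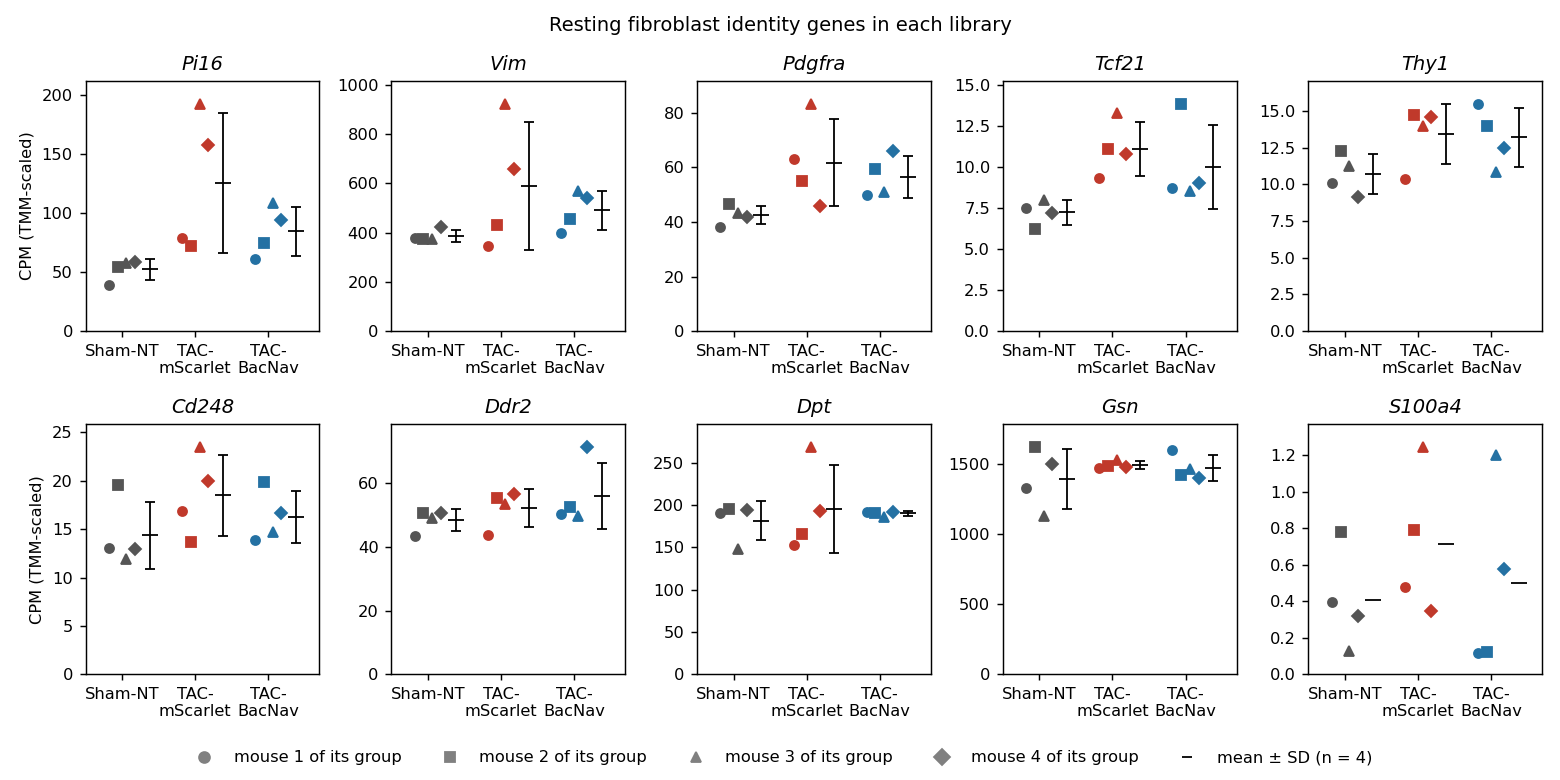
Each point is the CPM of 1 library (trimmed mean of M values scaling, linear axes from 0), with symbols for the mouse number and bars for group mean ± SD (n = 4; mean only for S100a4, which is near its counting limit). Pi16 runs from 39.1 to 58.3 CPM in Sham-NT and from 71.7 to 192 CPM in TAC-mScarlet, while Gsn and Dpt overlap in all groups.

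Pi16 encodes peptidase inhibitor 16, a secreted protein that marks fibroblasts of the adventitia. The gene (ENSMUSG00000024011.17) lies at chr17:29317680-29330593 on the plus strand of GRCm38. Sham-NT libraries held 39.1, 53.9, 57.6 and 58.3 CPM, TAC-mScarlet libraries 79.1, 71.7, 192 and 157 CPM, and TAC-BacNav libraries 61.1, 74.8, 108 and 94.2 CPM. Every constricted mouse of either group lay above every Sham-NT mouse, and TAC-mScarlet mice 3 and 4 lay above all others. Means were 52.2 ± 8.98, 125 ± 59.2 and 84.6 ± 20.7 CPM (SD, n = 4). Pi16 rose in TAC-mScarlet by 1.26 ± 0.30 on the log2 scale (SE; 95% interval 0.61 to 1.91; edgeR adjusted p = 0.0348). The difference ran from 0.97 to 1.44 over the fits that left out 1 library, and the call depended on the library left out. It was lost without any single Sham-NT library (adjusted p = 0.0576 to 0.0988), without TAC-mScarlet 3 (0.97, adjusted p = 0.0935), without TAC-mScarlet 4 (1.13, adjusted p = 0.0794), and in a fit of the 2 groups alone (1.25, adjusted p = 0.0551). The mean of Pi16 was lower on the high-Fos side in Sham-NT (46.5 against 58.0 CPM) and in TAC-BacNav (68.0 against 101 CPM). In TAC-mScarlet the 3 high-side libraries averaged 114 CPM and the single low-side library, mouse 4, held 157 CPM, while the highest of all, mouse 3, was on the high side. With the side as a factor the difference was 1.37 (adjusted p = 0.00955). A 222-base stretch of Pi16 exons overlaps AC162182.1 on the opposite strand, and reads of the pair cannot be separated without strand information.

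Pdgfra and Tcf21, the pair that defines the fibroblast lineage of the heart, had means above Sham-NT in both constricted groups but did not pass the test. Pdgfra encodes the alpha receptor for platelet-derived growth factors, on which fibroblast survival in the heart depends (chr5:75152292-75198215). Its libraries held 38.3, 46.5, 43.2 and 42.0 CPM in Sham-NT, 63.0, 54.9, 83.3 and 45.9 CPM in TAC-mScarlet, and 49.9, 59.5, 50.8 and 66.0 CPM in TAC-BacNav. Only TAC-mScarlet 4 fell within the range of Sham-NT. Means were 42.5 ± 3.39, 61.8 ± 15.9 and 56.6 ± 7.65 CPM, and the difference between TAC-mScarlet and Sham-NT was 0.54 ± 0.16 (95% interval 0.20 to 0.88; edgeR adjusted p = 0.0611). Pdgfra passed the test without TAC-mScarlet 4 (0.66, adjusted p = 0.0479), with DESeq2 (0.54, adjusted p = 0.0340) and with plain library size scaling (0.67, adjusted p = 0.0338). It was 0.36 without TAC-mScarlet 3 (adjusted p = 0.213) and 0.51 with limma-voom (adjusted p = 0.0984). Tcf21 encodes a basic helix-loop-helix factor needed for fibroblasts to form from the epicardium (chr10:22817281-22820174). Its libraries held 7.53, 6.25, 8.02 and 7.21 CPM in Sham-NT, 9.32, 11.1, 13.3 and 10.8 CPM in TAC-mScarlet, and 8.72, 13.9, 8.54 and 9.04 CPM in TAC-BacNav. No constricted mouse overlapped Sham-NT. The difference between TAC-mScarlet and Sham-NT was 0.61 ± 0.20 (0.19 to 1.04; edgeR adjusted p = 0.0829). Tcf21 was counted with 32 to 139 reads per library, so counting error adds to its spread. Plain library size scaling took Tcf21 past the threshold (0.74, edgeR adjusted p = 0.0452). But that scaling moved the median of all tested genes to 0.131 in this comparison, from 0.0044 in the reported fit. The same limit holds for Pdgfra under that scaling.

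Vim encodes vimentin, the intermediate filament of mesenchymal cells (chr2:13573927-13582826). Its libraries held 378, 373, 375 and 422 CPM in Sham-NT, 344, 430.0, 922 and 657 CPM in TAC-mScarlet, and 397, 453, 568 and 540.0 CPM in TAC-BacNav. TAC-mScarlet 1 was the lowest of all 12 libraries and TAC-mScarlet 3 the highest. The difference between TAC-mScarlet and Sham-NT was 0.60 ± 0.24 (0.10 to 1.11; edgeR adjusted p = 0.144). It was 0.79 without TAC-mScarlet 1 (adjusted p = 0.0410) and 0.30 without TAC-mScarlet 3. The 10 listed macrophage genes, whose cells also express Vim, summed to 542 to 737 CPM in Sham-NT, 809 to 1339 CPM in TAC-mScarlet and 789 to 940.0 CPM in TAC-BacNav. Of these 10 genes edgeR called 4 higher in TAC-mScarlet against Sham-NT, among them Adgre1, the F4/80 antigen, and Lyz2, lysozyme. The share over all tested genes was 2.65%. DESeq2 called 5 of the 10 and limma-voom 2. Over all tested genes the 719 edgeR calls of this comparison fell to 14 without Sham-NT 2. The part of the macrophage genes in the value of Vim was not tested. Gsn encodes gelsolin, which severs and caps actin filaments (chr2:35256380-35307892). Its libraries ranged from 1131 to 1624 CPM in Sham-NT, from 1476 to 1532 CPM in TAC-mScarlet and from 1400.4 to 1604 CPM in TAC-BacNav, and all 3 groups overlapped. The difference between TAC-mScarlet and Sham-NT was 0.10 ± 0.13, with a 95% interval from -0.17 to 0.36.

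None of the surface protein genes Ddr2, Thy1 and Cd248 passed the test in any comparison. Ddr2 encodes discoidin domain receptor 2, a tyrosine kinase that binds fibrillar collagen (chr1:169972307-170110762). Its libraries held 43.6, 50.8, 49.0 and 50.6 CPM in Sham-NT, 43.7, 55.5, 53.5 and 56.7 CPM in TAC-mScarlet, and 50.3, 52.6, 49.6 and 71.4 CPM in TAC-BacNav. All groups overlapped, and TAC-BacNav 4 stood apart. The difference between TAC-mScarlet and Sham-NT was 0.11 ± 0.13 (-0.17 to 0.39). Thy1, the surface glycoprotein CD90 (chr9:44043384-44048579), held 10.1, 12.3, 11.3 and 9.13 CPM in Sham-NT, 10.4, 14.7, 14.0 and 14.6 CPM in TAC-mScarlet, and 15.5, 14.0, 10.8 and 12.5 CPM in TAC-BacNav. Of the 4 TAC-mScarlet mice 3 lay above all Sham-NT mice, and the difference was 0.33 ± 0.17 (-0.04 to 0.70; edgeR adjusted p = 0.280). The 5 T cell genes present in the tables summed to 1.74 to 7.47 CPM over all libraries, of which only Trac passed the filter on low counts. Their part in the value of Thy1 was not tested. Cd248, endosialin, a glycoprotein of stromal cells and pericytes (chr19:5068078-5070682), ranged from 11.9 to 19.5 CPM in Sham-NT, 13.7 to 23.5 CPM in TAC-mScarlet and 13.8 to 19.9 CPM in TAC-BacNav. Its difference between TAC-mScarlet and Sham-NT was 0.37 ± 0.20 (-0.05 to 0.80; edgeR adjusted p = 0.290). It was 0.23 without TAC-mScarlet 3 and 0.55 without Sham-NT 2.

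Dpt encodes dermatopontin, which binds decorin and helps collagen fibrils assemble (chr1:164796644-164824266). Its libraries held 190.3, 195, 148 and 194 CPM in Sham-NT, 152, 165, 269 and 193 CPM in TAC-mScarlet, and 192, 191, 186 and 192 CPM in TAC-BacNav. The TAC-BacNav mice lay close together, whereas TAC-mScarlet held both a low mouse and the highest of all. The difference between TAC-mScarlet and Sham-NT was 0.10 ± 0.16 (-0.23 to 0.43; edgeR adjusted p = 0.761), and without TAC-mScarlet 3 it was -0.094. S100a4, also called fibroblast-specific protein 1, encodes a calcium-binding protein (chr3:90603771-90606045). It was counted with 2, 4, 1 and 2 reads in Sham-NT, 4, 7, 13 and 3 in TAC-mScarlet, and 1, 1, 9 and 7 in TAC-BacNav. Pooled over each group this is 0.355 CPM of raw totals in Sham-NT (exact Poisson 95% interval 0.162 to 0.674), 0.773 in TAC-mScarlet (0.509 to 1.12) and 0.502 in TAC-BacNav (0.297 to 0.793). These intervals cover counting error only, and a difference of this gene was not detectable with so few reads. Of its 584 exonic bases, 302 overlap Gm42674 on the same strand, where position alone cannot assign a read to either gene. How such reads were counted is not stated, and the part of this overlap in the low counts was not tested.

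**Figure D2:**
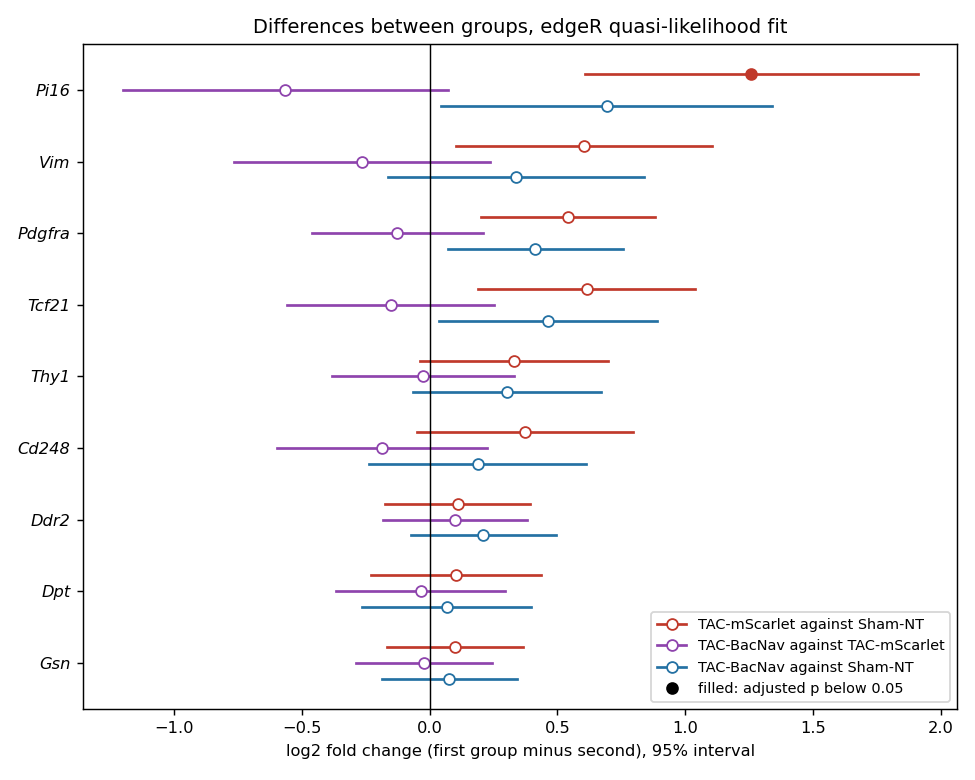
Points are log2 fold changes of the 9 tested genes and bars their 95% intervals, from 1 edgeR fit of all 12 libraries. The filled point is Pi16 in TAC-mScarlet against Sham-NT (1.26), the only value with an adjusted p below 0.05.

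With BacNav, the levels of the 9 genes could not be told from those with mScarlet alone. None of the 9 was called by edgeR, DESeq2 or limma-voom, and none had an unadjusted edgeR p below 0.05. Over all tested genes edgeR called 0% and 3.36% had an unadjusted p below 0.05, 1.38% being higher in TAC-BacNav. Libraries of these groups overlapped for all 9 genes, and did not for 1.7% of all tested genes. The difference was furthest from 0 for Pi16, at -0.57 ± 0.29 (95% interval -1.20 to 0.07; unadjusted p = 0.0770), followed by Vim at -0.27 ± 0.23 (-0.77 to 0.23). Without TAC-mScarlet 3, Pi16 differed by -0.28 and Vim by 0.039. Ddr2 at 0.10 ± 0.13 was the single value above 0. The other 6 lay between -0.19 and -0.02. The interval of Gsn ran from -0.29 to 0.24 and that of Pdgfra from -0.46 to 0.21. The median over the 9 genes was -0.13 (all tested genes, 0.0036), and without TAC-mScarlet 3 it was -0.0022.

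Against Sham-NT, TAC-BacNav means were higher for 9 of 9 genes, with a median of 0.30 (all tested genes, 0.0079), and none was called by edgeR, DESeq2 or limma-voom. Over all tested genes edgeR called 0.0144%. Unadjusted p was below 0.05 for 3 of the 9, Pi16, Tcf21 and Pdgfra, all higher in TAC-BacNav. Over all tested genes the share was 11.1%, and 5.79% for those higher. These 3 genes also did not overlap between the groups, against 5.45% of all tested genes, 3.08% being higher. Pi16 differed by 0.69 ± 0.30 (0.04 to 1.34; edgeR adjusted p = 0.431), Tcf21 by 0.46 ± 0.20 (0.04 to 0.89; adjusted p = 0.424) and Pdgfra by 0.41 ± 0.16 (0.07 to 0.76; adjusted p = 0.397). Without TAC-BacNav 2, the highest of its group, the difference of Tcf21 was 0.27. This comparison uses the same Sham-NT libraries as the first one, and the comparison with TAC-mScarlet uses libraries of both others, so their values are not independent.

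Other fibroblast genes did not all move one way. Of 25 tested, 7 rose and 1 fell in TAC-mScarlet against Sham-NT, with a median log2 difference of 0.37. Smoc2, a matricellular protein of fibroblasts, rose from 114 ± 9.15 to 175 ± 25.2 CPM (0.62 ± 0.13; edgeR adjusted p = 0.0229). Lum, the small leucine-rich proteoglycan lumican, rose from 67.1 ± 4.55 to 149.6 ± 69.9 CPM (1.16 ± 0.24; adjusted p = 0.0236). Clec3b, which encodes tetranectin, fell from 58.4 ± 15.6 to 33.6 ± 3.14 CPM (-0.80 ± 0.17; adjusted p = 0.0241). Dcn, decorin, the most abundant of the list, stood at 813 ± 96.0 and 1307 ± 528 CPM and did not pass (0.69 ± 0.22; adjusted p = 0.0781). These 8 calls fell to 0 without Sham-NT 2 or Sham-NT 4, to 3 without Sham-NT 1, to 2 without TAC-mScarlet 3 or TAC-mScarlet 4, and to 5 without TAC-BacNav 2. In each comparison with TAC-BacNav none of the 25 was called by edgeR, DESeq2 or limma-voom, and 5 had an unadjusted edgeR p below 0.05. Over all tested genes that share was 3.36% against TAC-mScarlet and 11.1% against Sham-NT. Medians of the 25 genes were -0.15 against TAC-mScarlet and 0.23 against Sham-NT.

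Genes that mark activated fibroblasts had a higher median. Of 16 tested, out of 17 listed, 8 rose and none fell in TAC-mScarlet against Sham-NT, with a median of 2.10. The fitted difference was above 0 for 14 of the 16, and below 0 for Acta2 and Fap. Acta2, a contractile actin, stood at 95.3 ± 17.2 CPM in Sham-NT and 68.8 ± 19.1 CPM in TAC-mScarlet (-0.47 ± 0.26; edgeR adjusted p = 0.313). Fap differed by -0.24 ± 0.22 (edgeR adjusted p = 0.585). Postn, periostin, held 39.6 to 52.4 CPM in Sham-NT and 213, 263, 2067 and 736 CPM in TAC-mScarlet, so that mouse 3 weighs heavily on the group mean of 820 ± 864 CPM (4.12 ± 0.83; edgeR adjusted p = 0.0295). Ccn2, connective tissue growth factor, rose by 2.14 (adjusted p = 0.0229), and Col8a1, a short-chain collagen, rose from 36.2 ± 3.53 to 225 ± 145 CPM (2.63 ± 0.50; adjusted p = 0.0245). The 8 calls fell to 0 without Sham-NT 2 or Sham-NT 4, to 1 without Sham-NT 1 or TAC-mScarlet 4, to 4 without Sham-NT 3 and to 2 without TAC-mScarlet 3. Medians were -1.03 in TAC-BacNav against TAC-mScarlet and 0.94 against Sham-NT. In these comparisons none of the 16 was called by edgeR, DESeq2 or limma-voom, and 7 and 8 genes had an unadjusted edgeR p below 0.05. Over all tested genes the shares were 3.36% and 11.1%. Of the 8 listed ventricular muscle genes edgeR called 3 lower in TAC-mScarlet against Sham-NT, where the share over all tested genes was 2.52%. DESeq2 called 6 of the 8 and limma-voom 2. The 8 genes summed to 80804 to 89822 CPM in Sham-NT, 51298 to 67846 in TAC-mScarlet and 60824 to 82304 in TAC-BacNav. Tnni3, cardiac troponin I, fell by 0.93 (log2; edgeR adjusted p = 0.0204) and Tnnt2, cardiac troponin T, fell by 0.48 (adjusted p = 0.0403), while Myl2, the most abundant of the list, stood at 24961 ± 5246 and 17061 ± 2089 CPM (adjusted p = 0.0887). The part of this shift in the fibroblast values was not tested. None of the 8 endothelial genes, the 8 tested smooth muscle and pericyte genes or the 10 mesothelial genes was called in TAC-mScarlet against Sham-NT by edgeR, DESeq2 or limma-voom. Of these, 1 gene, Pdgfrb on the smooth muscle and pericyte list, had an unadjusted edgeR p below 0.05, against 22.2% of all tested genes. The lists share genes: Pdgfrb is also on the PDGF list, and Acta2 is on the activated and the smooth muscle lists. The most abundant genes of these lists were Kdr (202 and 222 CPM in Sham-NT and TAC-mScarlet), Rgs5 (879 and 1039 CPM) and Upk3b (16.1 and 13.5 CPM).

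**Figure D3:**
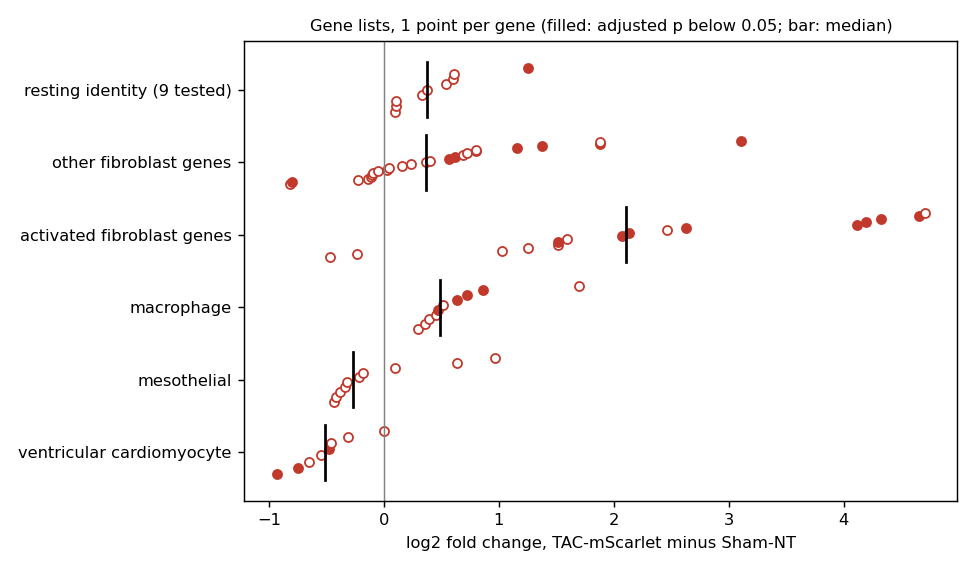
Each point is the log2 difference of 1 gene between TAC-mScarlet and Sham-NT, filled where the edgeR adjusted p is below 0.05, with a bar at each list's median. The resting set (median 0.37) overlaps the other fibroblast genes (0.37), while the activated genes have a median of 2.10. All lists were chosen with earlier results of these data known.

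The families of both receptors in the set were read in the same fit. Pdgfra binds the ligands encoded by Pdgfa, Pdgfb and Pdgfc, and Pdgfrb is its sister receptor on mural cells. None of the 6 PDGF ligand and receptor genes was called by edgeR in any comparison. In TAC-mScarlet against Sham-NT 2, Pdgfra and Pdgfrb, had an unadjusted edgeR p below 0.05, against 22.2% of all tested genes. There DESeq2 called 1 of the 6, Pdgfra, and limma-voom none. Their median in TAC-mScarlet against Sham-NT was 0.15. Pdgfrb stood at 62.9 ± 5.86 CPM in Sham-NT and 74.6 ± 7.31 CPM in TAC-mScarlet (0.25 ± 0.11; edgeR adjusted p = 0.220). Among the 6 tested collagen receptor genes around Ddr2, only Itga11 was called in TAC-mScarlet against Sham-NT, where 5.17% of all tested genes were called. The list median was 0.26. Itga11, the integrin alpha chain of a fibroblast collagen receptor, rose from 2.98 to 6.56 CPM (1.16 ± 0.29; adjusted p = 0.0365), a call lost with limma-voom and without any one Sham-NT library, TAC-mScarlet 3 or TAC-mScarlet 4. Itgb1, the beta chain that pairs with it, stood at 429 ± 69.8 and 529 ± 74.7 CPM (0.30 ± 0.15; adjusted p = 0.244).

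The 9 genes differed in how far mice of 1 group spread. In TAC-mScarlet the SD of log2(CPM + 1) was 0.70 for Pi16 and 0.63 for Vim, against a median of 0.22 over all tested genes, and 0.024 for Gsn. In Sham-NT the SD was 0.27 for Pi16 and 0.085 for Vim (all tested genes, 0.25). TAC-mScarlet 3 lay above its group mean for 9 of 9 genes and was the highest of its group for 7. TAC-mScarlet 1 was the lowest of its group for 6. Without TAC-mScarlet 3, 8 of the 9 differences from Sham-NT stayed above 0 and their median was 0.30.

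**Figure D4:**
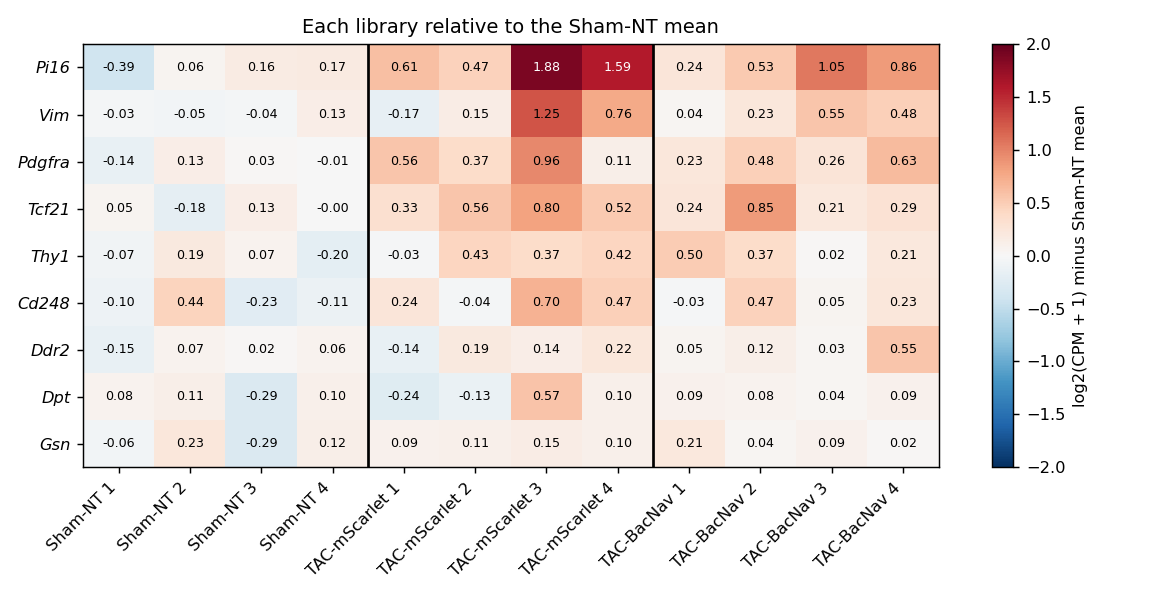
Colours and numbers give log2(CPM + 1) of each library minus the Sham-NT mean for the 9 tested genes (rows) in 12 libraries (columns). Pi16 reaches 1.88 in TAC-mScarlet 3 and 1.59 in TAC-mScarlet 4, whereas Gsn stays between 0.02 and 0.21 in both constricted groups.

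Patterns over the 12 libraries were compared by the root mean square difference of centred log2(CPM + 1), among 10782 genes of at least 5 CPM. Nearest to Pi16 were Fhl1 (0.18) and Olfml3 (0.19), where the root mean square of Pi16 itself was 0.62. Nearest to Pdgfra were Ctsc (0.12) and Rbpj (0.13), against 0.30 for Pdgfra itself, and nearest to Vim were Pla1a (0.13) and Dbn1 (0.14), against 0.40. Among the 9 genes, Pdgfra and Tcf21 were each other's nearest (0.24), as were Dpt and Gsn (0.18), and Vim was the nearest to Pi16 (0.32). The distance of Dpt and Gsn was larger than the root mean square of Gsn itself (0.13), so it does not show a shared pattern. Nearest to Tcf21 were Crtc3 (0.13) and Gskip (0.14), against 0.30 for Tcf21 itself, and nearest to Dpt were Serpinb6a (0.086) and Txndc17 (0.098), against 0.21. Gsn, whose own root mean square was 0.13, was nearest to Rpl4 and Cyb5a (0.077 each).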

How the data were processed

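RNA from 12 ventricles was sequenced, and the deposited files hold raw counts per gene. Reads were aligned with HISAT2 and counted with featureCounts, per the submitters' processing notes; their versions and strand setting: not given in the sources used here. These notes name GRCh38, while the identifiers are mouse Ensembl genes, of which 14946 of 14957 matched GENCODE vM21 (GRCm38) without version. The smallest gene total was 30 counts, with reads in no fewer than 6 libraries for any gene, so low genes had been removed before deposit.

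Counts were fitted with edgeR 4.0.16 (R 4.3.3; robust quasi-likelihood, trimmed mean of M values, filterByExpr, all 12 libraries in 1 model), two-sided, with Benjamini-Hochberg adjustment over 13910 genes and a threshold of 0.05. SE is the log2 fold change over the root of F. The fit was tested on simulated data that held no Fos split, so that test does not show how firm the calls reported here are. Alternatives used DESeq2 1.42.0 and limma 3.58.1, another scaling, no filter, the 2 groups alone, the mouse number as a block and each library left out; a factor for Fos above 20 CPM was planned with that split known from earlier results. The repeats of the list counts and the values by Fos side were chosen after seeing the data. Named genes were all members, and, from each other list, up to 2 called genes of smallest p in either direction and the most abundant gene. For each member the 2 nearest patterns were ranked, of which some are printed. Members and lists were chosen with earlier results of these data known.

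Mouse numbers are shared by the groups, but the labels do not say that they mark a shared litter or day. In every group mice 1 and 2 were on the high-Fos side and mouse 4 on the low side. Mouse 3 was on the high side in TAC-mScarlet only. The fits with the mouse number as a block and with the Fos factor are therefore not separate checks. No library pair within a group agreed within sampling noise (smallest chi-square per degree of freedom 5.70). P-values rest on 4 mice a group.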

Additional observations from a re-analysis of the deposited data

Results flagged for a closer look

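Of 30 groups of 4 libraries tested over the 10 genes, 6 held a library whose gap to the nearest other passed Dixon's 95% critical value for 4 samples; chance flags about 1 group in 20. Tcf21 was 13.9 CPM in TAC-BacNav 2 against 8.54 to 9.04 in the others of its group. Dpt was 148 CPM in Sham-NT 3 against 190.3 to 195 in the others. Cd248 was 19.5 CPM in Sham-NT 2 against 11.9 to 13.1. Ddr2 was 71.4 CPM in TAC-BacNav 4 against 49.6 to 52.6. Vim was 422 CPM in Sham-NT 4 against 373 to 378. Thy1 was 10.4 CPM in TAC-mScarlet 1 against 14.0 to 14.7.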

How the results depend on the processing

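In TAC-mScarlet against Sham-NT, 1 gene of the set was called in the reported fit, 3 with plain library size scaling (Pi16, Pdgfra, Tcf21), 2 with DESeq2 (Pi16, Pdgfra), 0 in a fit of the 2 groups alone and 0 to 2 when 1 library was left out. With the mouse number as a replicate block the count was 1, and Pi16 differed by 1.17 (edgeR adjusted p = 0.00288). Not every same-numbered pair deviated together (8 of 12 pairs over 0.1, r from -0.318 to 0.414). Single Sham-NT or TAC-mScarlet libraries were also compared with the libraries of another group. In 4 of these 12 cases the best correlation was with the same number. Over all alternatives other than left-out libraries, the adjusted p of Pi16 ran from 0.000848 to 0.0551. No gene of the set was called in the other comparisons in any fit. Over all tested genes, TAC-mScarlet against Sham-NT gave 719 calls, 1371 with DESeq2, 475 with limma-voom, 1459 with the Fos factor, and 14 to 1055 with 1 library left out; TAC-BacNav against TAC-mScarlet gave 0, 5 with DESeq2 and 6 with the block; TAC-BacNav against Sham-NT gave 2, 38 with DESeq2, 12 with the block and 8 with the Fos factor. Some signs turned. In TAC-BacNav against TAC-mScarlet, Dpt was 0.0021 with limma-voom and Gsn 0.0011 with the Fos factor. With 1 library left out, Dpt ran from -0.094 to 0.20 between TAC-mScarlet and Sham-NT. Between TAC-BacNav and TAC-mScarlet, Pdgfra ran from -0.24 to 0.054, Dpt from -0.14 to 0.16, Vim from -0.45 to 0.039, Thy1 from -0.13 to 0.066, Gsn from -0.064 to 0.0052 and Ddr2 from -0.039 to 0.16. In TAC-BacNav against Sham-NT, Dpt ran from -0.021 to 0.10 and Gsn from -0.011 to 0.16. The cause was not tested. Low counts limit S100a4 and, less so, Tcf21.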
